A study of Mus musculus with 24 samples.

Results

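The hypoxia-inducible factor (HIF) pathway was followed in mouse primitive erythroid cells, the earliest blood cells that carry hemoglobin, through 10 genes taken by symbol: the alpha subunits Hif1a, Epas1 and Hif3a, their partner Arnt, the regulators Egln1, Egln3 and Vhl, and the targets Bnip3, Ddit4 and Vegfa. Of these, 9 genes have an annotated probe on the Illumina bead array and are represented by 21 of its 45719 probes, out of 17583 gene symbols. Epas1 was not analysed here. All probes of the 9 genes are included, whatever their values.

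The embryos carry an H2B-EGFP transgene under the human epsilon-globin promoter, and green cells were sorted at 6 stages. Up to E9.5 the source was the whole embryo, taken apart with collagenase, and from E10.5 on it was embryonic blood. Each replicate was a pool of embryos up to E10.5 and a single embryo at E11.5 and E12.5. RNA was amplified in 2 rounds for E8.5 and E7.5 cells (n = 3 each). It was amplified in 1 round for another 6 E8.5 samples and for 3 samples of each stage from E9.5 to E12.5. Values of the 2 kinds of array were normalised apart and are not set against each other. E7.5 and E8.5 samples were lysed and extracted with another kit than later ones. Stage and kit therefore cannot be told apart at E9.5 against E8.5. The same holds for stage and source at E10.5 against E9.5, and for stage and pooling at E11.5 against E10.5. At E12.5 against E8.5 kit, source and pooling all change with stage.

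Cells answer low oxygen through HIF, a dimer of an oxygen-regulated alpha subunit and the constitutive subunit ARNT. While oxygen is present, the prolyl hydroxylases encoded by Egln1 and Egln3 mark the alpha subunits, and the ubiquitin ligase subunit encoded by Vhl binds the marked protein, which is then degraded. HIF binds short DNA motifs and raises the transcription of genes for glycolysis, vessel growth and mitochondrial turnover. Regulation of the alpha subunits is thus largely on the protein, which these arrays do not measure.

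All 8 tested primitive erythroid marker genes, among them the embryonic globins Hba-x and Hbb-bh1, were detected on every array from E8.5 on, and 7 or 8 of them on the E7.5 arrays. A probe counts as detected at a detection p under 0.05. Between 12355 and 15387 probes were detected on each 1-round array from E8.5 to E11.5, but only 8542 to 10570 on the E12.5 arrays, and 13159 to 14037 on the 2-round arrays. Slide 2 held E9.5 and E8.5 replicates 1 to 3, slide 3 held E12.5 and E8.5 replicates 4 to 6, slide 4 held E11.5 and E10.5, and slide 1 the 2-round arrays. The E8.5 replicates stood apart by slide: on average replicates 1 to 3 were 1.27 higher than replicates 4 to 6 for the brightest Hif3a probe and 1.05 lower for an Arnt probe, in log2 units, so changes against E8.5 are also given within 1 slide. The kit still differs between E8.5 and the later stage within 1 slide, so these values do not separate stage from kit. No stage was run both on slide 4 and on another slide, so slide and stage cannot be told apart at E10.5 against E9.5 and at E12.5 against E11.5. Marker genes of the visceral endoderm, which lines the early yolk sac, had a summed level of 236 to 307 at E9.5, against 298 to 754 at E8.5 with 1 round. Of their 7 tested probes, 6 were lower at E9.5, where 9.05% of all probes were. In sorted bulk samples, fewer cells of a type and less RNA per cell cannot be told apart.

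HIF recognises the cores ACGTG and GCGTG, and these were looked for on both strands of the 250 bases before each RefSeq start of the genes (mouse build GRCm38.p6). A core was present in 8 of the 10 promoters of the 9 genes. None lay before Vhl or before the Vegfa start within chr17:46032328-46032627. The Vegfa matches lie before its other start, within chr17:46025114-46025413. Of all 32851 mouse promoters in the same table, 12679 (38.6%) hold one. Hif3a, Egln3 and Arnt each have a probe whose call at E9.5 against E8.5 held in every setting that tested it, though not all their probes changed. Windows of these genes and of the oxygen sensor Egln1 are printed here, 5′ to 3′ on the strand of the gene, with the core in capitals. They lie at chr7:17062584-17062638 (Hif3a, minus strand, core 186 bases before the start), chr12:54204074-54204124 (Egln3, minus strand, 229 bases), chr3:95434336-95434389 (Arnt, plus strand, 29 bases) and chr8:124949293-124949347 (Egln1, minus strand, 68 bases). A match describes these letters and not a bound site.
Hif3a: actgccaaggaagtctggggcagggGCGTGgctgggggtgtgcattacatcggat
Egln3: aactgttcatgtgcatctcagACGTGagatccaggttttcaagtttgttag
Arnt: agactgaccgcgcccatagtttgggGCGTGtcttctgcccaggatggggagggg
Egln1: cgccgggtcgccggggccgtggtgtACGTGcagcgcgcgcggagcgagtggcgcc

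Detection differed between the genes. At least 1 probe of Hif3a, Arnt and Egln3 was detected on all 24 arrays, and the Vegfa probe on 21 of them. The Vhl probe was detected on all 6 arrays with 2 rounds and on none of the 18 with 1 round. Of the 3 Hif1a probes, 1 was detected on a single array, from E8.5 with 2 rounds, and the others on none, and the single probes of Bnip3 and Ddit4 on 0 and 3 of 24 arrays. In all, 12 probes of 5 genes could be tested on the 1-round arrays and 8 probes of 5 genes on the 2-round arrays, because a probe had to be detected on at least 3 arrays, and 8 of the 21 probes entered neither test. A probe that entered only through the stage where it is bright is bound to differ, so counts over tested probes are given as description only.

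**Figure D1:**
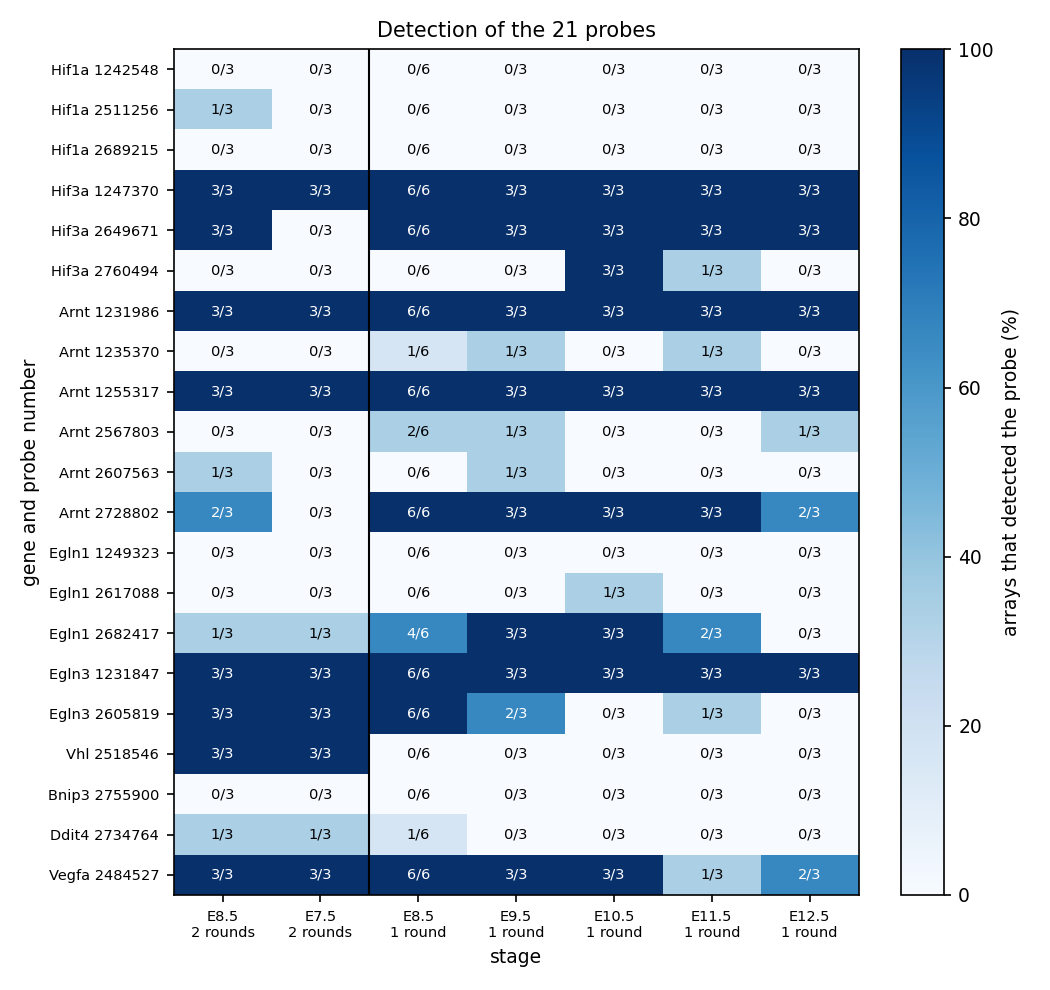
Number of arrays on which each of the 21 probes (rows, gene and probe number) was detected at each stage (columns), shaded by the percentage of arrays. Solid blocks belong to Hif3a, Arnt, Egln3 and Vegfa, the Vhl probe is filled only with 2 rounds, and the rows of Hif1a, Bnip3 and Ddit4 are nearly empty.

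Stages were compared with limma, and a probe was called at a Benjamini-Hochberg adjusted p under 0.05 over all probes tested. At E8.5 against E7.5, 1 of 8 tested probes rose, where 6.04% of all probes did, and 2 fell (6.03% of all probes). At E9.5 against E8.5, 3 of 12 rose (7.53% of all probes) and 2 fell (9.05%). At E10.5 against E9.5, limma called 0 of 12 probes, where 1.05% of all probes rose and 0.603% fell, and 2 of the 12 had an unadjusted p under 0.05. At E11.5 against E10.5, 1 rose (5.01% of all probes) and 0 fell (5.51%). At E12.5 against E11.5, 1 rose (23.6%) and 1 fell (23.9%), and at E12.5 against E8.5 3 rose (32.1%) and 4 fell (35.4%). In the test over all stages from E8.5 to E12.5, 8 of the 12 differed, where 73.1% of all probes did. The balance at E12.5 depended on the scaling. Median scaling gave 9 higher and 1 lower against E11.5, where it called 14293 of all 17408 tested probes higher and 875 lower. Against E8.5 it gave 10 higher and 0 lower, where it called 13889 of all probes higher and 1885 lower. Cyclic loess gave 3 higher and 1 lower against E11.5 and 3 higher and 2 lower against E8.5, where it called 20.2% and 27.4% of all probes. The comparisons share stages and are not independent.

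**Figure D2:**
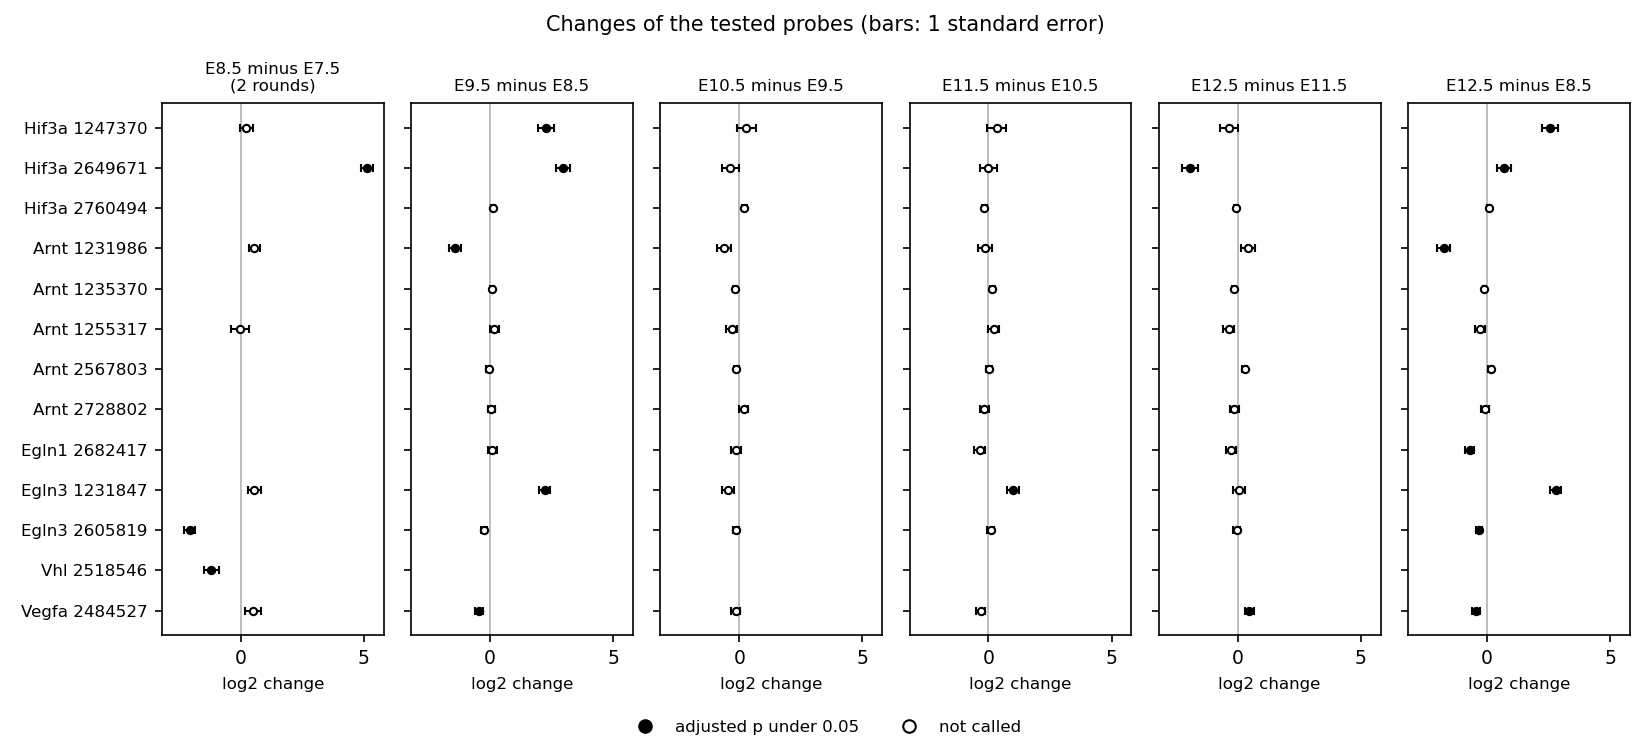
Log2 change of each tested probe (rows) in 6 comparisons (panels), later minus earlier stage, with 1 standard error. Filled points have an adjusted p under 0.05, and the step to E9.5 shows 2 Hif3a probes and 1 Egln3 probe to the right and 1 Arnt probe and the Vegfa probe to the left.

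Hif3a encodes an alpha subunit of which several splice forms act as inhibitors of HIF. Both of its bright probes rose at E9.5 against E8.5 without a further call up to E11.5, and 1 of them fell at E12.5. The probe annotated to a RefSeq transcript (ILMN_1247370) read 9.55, 9.82 and 10.20 at E9.5, against 6.86 to 8.68 with a median of 7.36 at E8.5 (log2 level). All E9.5 arrays lay above all 6 E8.5 arrays. The rise was 2.28 ± 0.32 (SE, 4.87-fold, adjusted p = 1.59e-05), and within slide 2 it was 1.65 ± 0.25 (adjusted p = 0.000578, n = 3 each, limma). The same probe read 9.85, 10.15 and 10.43 at E10.5, 10.33, 10.52 and 10.58 at E11.5, and 9.55, 10.44 and 10.42 at E12.5. These stages overlapped, and none of the 3 later steps was called (adjusted p = 0.487 to 0.807). E12.5 exceeded E8.5 by 2.57 ± 0.32 (adjusted p = 2.9e-07), and by 3.20 within slide 3.

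The Hif3a probe annotated to a GenBank cDNA clone (ILMN_2649671) read 9.22, 9.57 and 8.64 at E9.5, against 5.45 to 6.96 with a median of 6.12 at E8.5. Again no E9.5 array reached down to E8.5. The rise was 2.97 ± 0.29 (7.84-fold, adjusted p = 3.28e-07), and 2.48 within slide 2. This probe read 8.59, 8.80 and 8.97 at E10.5 and 8.71, 8.95 and 8.69 at E11.5, with no call at either step. At E12.5 it read 7.52, 6.72 and 6.33, all below the E11.5 arrays. The fall at E12.5 was -1.93 ± 0.33 (3.81-fold lower, adjusted p = 4.48e-05), and it lay between -1.55 and -2.27 and passed the test in all 16 alternative settings. Against E8.5, E12.5 was higher by 0.68 ± 0.29 (adjusted p = 0.0405), with overlapping groups, and 1.17 within slide 3 (adjusted p = 0.00706). The call over all arrays was lost in 11 of 21 alternative settings: without E8.5 replicate 4 (0.60), 5 (0.60) or 6 (0.53), without E12.5 replicate 1 (0.37, adjusted p = 0.31) or 2 (0.78), and in 6 settings of other kinds (0.19 to 0.68, adjusted p = 0.0543 to 0.499).

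Between E7.5 and E8.5, measured with 2 rounds, the Hif3a probes differed most. The cDNA probe read 9.56, 8.90 and 9.41 at E8.5, and 4.20, 4.14 and 4.16 at E7.5, where it was detected on 0 of 3 arrays. It was at least 26.7-fold higher at E8.5 (measured means 9.29 and 4.17), the bound being taken against the lowest detected signal of each E7.5 array. The probe passed the detection filter only through the 3 E8.5 arrays, where it is bright. Its limma adjusted p of 0.00118 is therefore given as description only. It was not tested when any E8.5 array was left out, since only 2 arrays then detected it. With the authors' deposited processed values, under the same filter, the change was 2.13 in place of 5.12. At the same step visceral endoderm markers summed to 942 to 2889 at E8.5, against 325 to 638 at E7.5, with 2 of 8 tested probes higher. Primitive erythroid markers summed to 52171 to 66954 at E8.5, against 7784 to 22148 at E7.5, with 4 of 10 tested probes higher. Of all probes, 6.04% were higher at this step. The part of either marker set in the rise of the cDNA probe was not tested. The RefSeq probe read 5.37, 6.13 and 5.76 at E8.5, and 5.4, 5.41 and 5.77 at E7.5. These groups overlapped, with a change of 0.22 ± 0.26 (adjusted p = 0.672).

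The agreement of the Hif3a probes was checked on their difference within each array, RefSeq minus cDNA probe. Over the 18 arrays with 1 round the probes correlated at r = 0.751, a description of arrays that share stages and slides. The difference averaged 3.28 at E12.5, against 1.69 at E11.5, with no overlap between the stages. The probes' changes at that step thus differed by 1.59, and an exact permutation test gave p = 0.1, the smallest that 3 against 3 arrays allow. At E12.5 against E8.5 the changes differed by 1.89 (two-sided exact permutation p = 0.0238, 0.0857 after adjustment over the 18 comparisons of 3 genes). At E8.5 against E7.5 they differed by -4.90 (exact p = 0.1, no overlap), and at E9.5 against E8.5 by -0.69 (exact p = 0.143, overlapping).

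The third Hif3a probe (ILMN_2760494, RefSeq) stayed near background. It read 4.83, 4.79 and 4.75 at E10.5, where it was detected on all 3 arrays, and was detected on 1 other array, at E11.5. Its changes from one stage to the next were not called (adjusted p = 0.262 to 0.504), and it differed in the test over the 5 stages (adjusted p = 0.00546). It entered these tests mainly through E10.5, so the last value is description only. Which splice forms the 3 probes read was not analysed here.

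**Figure D3:**
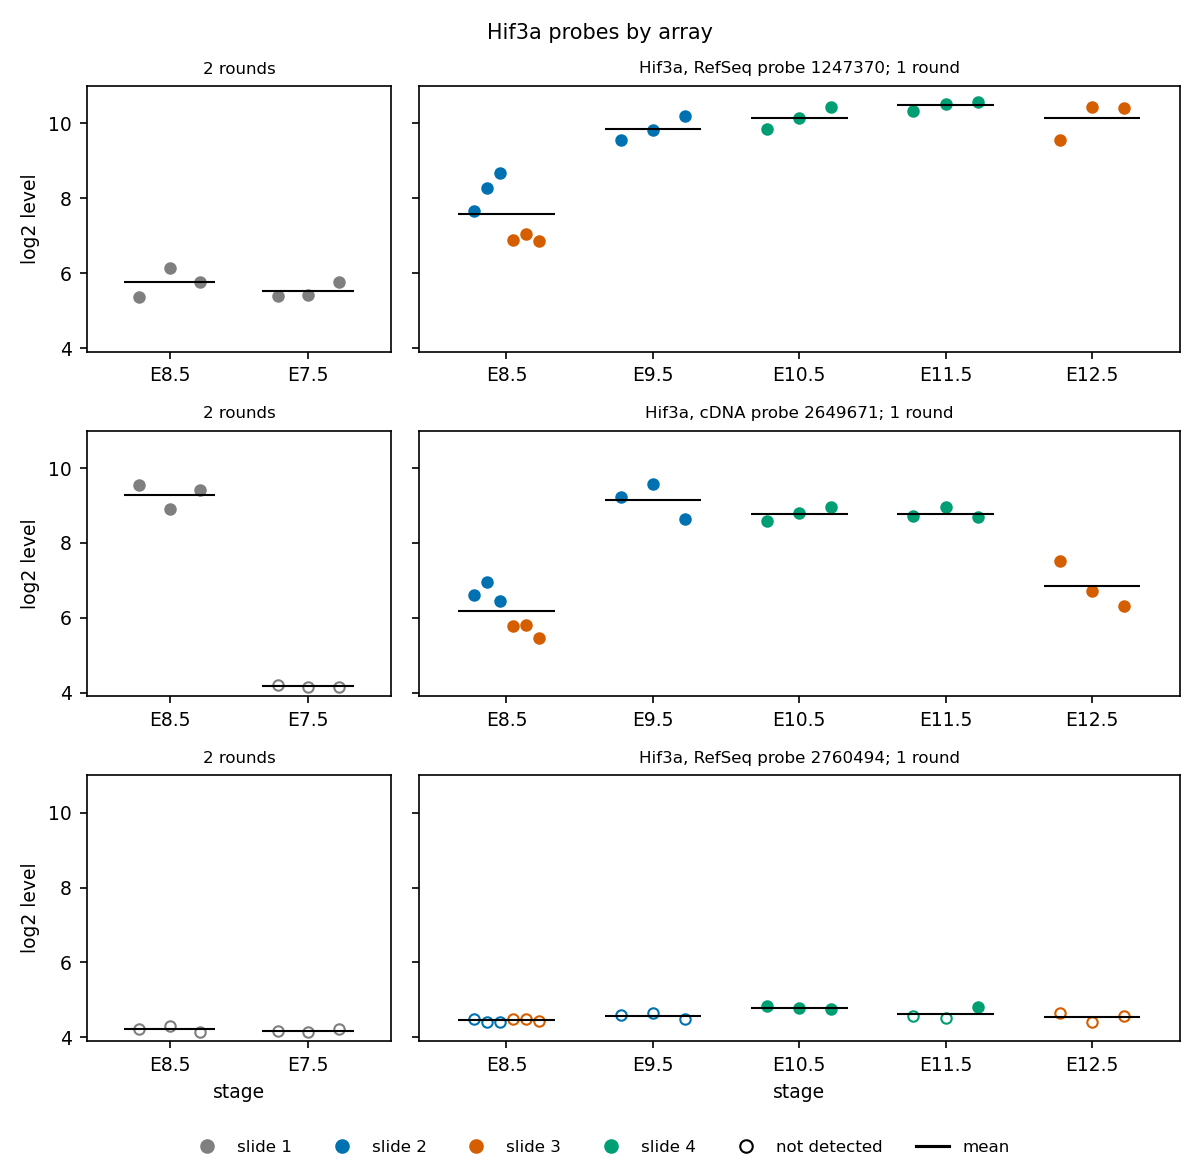
Log2 level of the 3 Hif3a probes on each array by stage, coloured by slide, with open points for arrays that did not detect the probe and a line at the mean. The 2 upper probes sit higher at E9.5, E10.5 and E11.5 than at E8.5 with 1 round. At E12.5 the middle probe is back at 6.33 to 7.52, and with 2 rounds it alone separates E8.5 from E7.5.

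Hif1a, the widely expressed alpha subunit, gave no measurable signal. Its 3 probes, 1 to a cDNA clone and 2 to RefSeq transcripts, read 4.14 to 4.65 on all 24 arrays, where the lowest detected signal of an array was 4.35 to 5.17. The one detected value, 4.54, came from E8.5 replicate 3 with 2 rounds. No fold change is given for Hif1a, and the readings say only that its transcripts were not detectable with these probes.

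Arnt encodes the subunit that pairs with every HIF alpha subunit. Its 6 probes did not move together: 1 fell with stage, 2 others that were regularly detected were not called at any step, and 3 stayed near background. The falling probe, annotated to a cDNA clone (ILMN_1231986), read 5.76, 5.74 and 5.44 at E9.5, against 6.45 to 7.95 with a median of 6.97 at E8.5. Every E9.5 array lay below every E8.5 array. The fall was -1.42 ± 0.25 (2.68-fold lower, adjusted p = 0.00022), and -0.89 within slide 2 (adjusted p = 0.00226). The probe read 5.15, 5.07 and 4.84 at E10.5, 4.86, 4.97 and 4.78 at E11.5, and 5.01, 5.4 and 5.52 at E12.5. None of these 3 steps was called over all arrays in the setting used throughout. Other settings called the fall at E10.5 (-0.62 with only the 2 stages fitted and -0.68 with array weights) and the rise at E12.5 against E11.5 (1.21 under cyclic loess and 2.46 under median scaling). E12.5 remained below E8.5 by -1.76 ± 0.25 (adjusted p = 1.57e-06), or -2.29 within slide 3. Under median scaling the change at E12.5 against E8.5 was -0.36 (adjusted p = 0.19).

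The brightest Arnt probe on the 1-round arrays, annotated to a RefSeq transcript (ILMN_1255317), read 7.0, 7.21 and 6.72 at E9.5, against 6.44 to 7.01 with a median of 6.86 at E8.5. It read 6.63, 6.67 and 6.74 at E10.5, 7.08, 6.88 and 6.74 at E11.5, and 7.06, 6.08 and 6.45 at E12.5. All stages overlapped with their neighbours or lay within 0.37 of them on average, and the test over the 5 stages was not passed (adjusted p = 0.328). Without E12.5 replicate 1, its fall at E12.5 was called, at -0.66 against E11.5 and -0.56 against E8.5 (both adjusted p = 0.014). The 2 Arnt probes correlated at r = 0.142 over the 18 arrays. Their changes differed by 1.60 at E9.5 against E8.5 and by 1.49 at E12.5 against E8.5, without overlap, each at p = 0.0119 in an exact permutation test (0.0536 after adjustment), the smallest that 3 against 6 arrays allow. The RefSeq minus cDNA difference at E8.5 split by slide, at -0.97 to -0.47 on slide 3 and -0.003 to 0.37 on slide 2. At E9.5 it was 1.25 to 1.47. The permutation tests of probe differences, for any gene, took the E8.5 arrays of both slides together and were not run within 1 slide.

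Another RefSeq probe of Arnt (ILMN_2728802), detected on 17 of the 18 arrays, averaged 5.22 to 5.52 at the 5 stages and gave no call (adjusted p over the stages = 0.541). With 2 rounds, the cDNA probe of Arnt read 7.03, 6.83 and 7.22 at E8.5, and 6.55, 6.23 and 6.63 at E7.5. The stages did not overlap, but the change of 0.55 ± 0.24 missed the threshold (adjusted p = 0.196). The brighter RefSeq probe read 6.27, 5.83 and 6.32 at E8.5, and 5.54, 6.22 and 6.77 at E7.5, an overlap with a change of -0.04 (adjusted p = 0.963). The remaining 3 probes of Arnt were detected on 2, 3 and 4 of the 24 arrays. The first of them was not tested, and the others gave no call in the comparisons above. The probe detected on 4 arrays (ILMN_2567803) was higher at E12.5 than at E10.5 by 0.31 ± 0.12 (adjusted p = 0.0257). It was detected on 1 of 3 arrays at E12.5 and on 0 of 3 at E10.5. Its E12.5 mean of 4.84 lay under the lowest detected signals of those arrays (4.90 to 5.17), so this call is description only. Without E12.5 replicate 3 this probe was also called against E11.5 (0.43) and E8.5 (0.29).

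Egln3 encodes a prolyl hydroxylase whose gene is itself induced by HIF in many cell types. Its probe to a cDNA clone (ILMN_1231847) rose like Hif3a at E9.5 and was highest at E11.5 and E12.5. It read 9.64, 10.06 and 9.40 at E9.5, against 6.94 to 8.06 with a median of 7.43 at E8.5. No E9.5 array overlapped E8.5. The rise was 2.21 ± 0.21 (4.64-fold, adjusted p = 3.28e-07), and 1.95 within slide 2. At E10.5 the probe read 8.98, 9.38 and 9.33, just below every E9.5 array, a step of -0.47 that was not called (adjusted p = 0.444). At E11.5 it read 10.16, 10.37 and 10.11, above all E10.5 arrays, and the rise of 0.98 ± 0.25 passed (adjusted p = 0.0129, and 0.000195 with the arrays of slide 4 alone). This call was lost without E11.5 replicate 2 (0.91, adjusted p = 0.065) or E10.5 replicate 1 (0.86, adjusted p = 0.091). E12.5 arrays read 10.02, 10.46 and 10.34 and overlapped E11.5, a step called only under cyclic loess (0.86) and median scaling (0.67) among the settings run. E12.5 exceeded E8.5 by 2.79 ± 0.21 (6.90-fold, adjusted p = 1.06e-10), and by 3.05 within slide 3.

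The Egln3 probe to a RefSeq transcript (ILMN_2605819) ran the other way. With 2 rounds it read 6.96, 7.46 and 7.27 at E8.5, and 9.06, 9.40 and 9.46 at E7.5. The E8.5 arrays lay well below, and the fall was -2.08 ± 0.22 (4.22-fold lower, adjusted p = 0.0034). It passed in all 15 alternative settings. At the same step epiblast and early mesoderm markers had a summed level of 1819 to 2124 at E8.5, against 4885 to 7501 at E7.5, with 2 of 3 tested probes lower. Macrophage and leukocyte markers summed to 503 to 1020 at E8.5, against 3651 to 5051 at E7.5, with 2 of 2 tested probes lower. Of all probes, 6.03% fell at this step. Of the 6 macrophage and leukocyte genes with a probe, only Laptm5 and Spi1 were detected at E7.5, each on 3 of 3 arrays. Ptprc, Fcer1g, Tyrobp and Lyz2 were detected on 0 of 3. The part of either marker set in the fall of the Egln3 probe was not tested.

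On the 1-round arrays this RefSeq probe of Egln3 was faint. It read 4.8 to 5.08 at E8.5, detected on all 6 arrays, and was detected on 2 of 3 arrays at E9.5, 0 of 3 at E10.5, 1 of 3 at E11.5 and 0 of 3 at E12.5. The change of -0.33 at E12.5 against E8.5 was called (adjusted p = 0.0173) but not within slide 3 (-0.35, adjusted p = 0.0722), under cyclic loess (-0.26) or with array weights (-0.25). It turned to 1.98 under median scaling, and no fold is given because the E12.5 readings lay under the lowest detected signals. It was also lost without E12.5 replicate 1 (-0.24) or 3 (-0.29). The cDNA probe with 2 rounds read 5.28, 6.22 and 5.77 at E8.5, and 5.27, 5.07 and 5.31 at E7.5, without a call (0.54 ± 0.27, adjusted p = 0.263).

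Over the 18 arrays the Egln3 probes correlated at r = -0.655. The cDNA minus RefSeq difference averaged 5.01 at E9.5, against 2.55 at E8.5, and 5.67 at E12.5. The probes' changes differed by 2.46 at E9.5 against E8.5 and by 3.12 at E12.5 against E8.5 without overlap (exact permutation p = 0.0119 each, 0.0536 after adjustment). At E8.5 against E7.5 they differed by 2.62, with no overlap and an exact p = 0.1, the smallest 3 against 3 arrays allow. A direction for Egln3 as a gene is therefore not given.

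**Figure D4:**
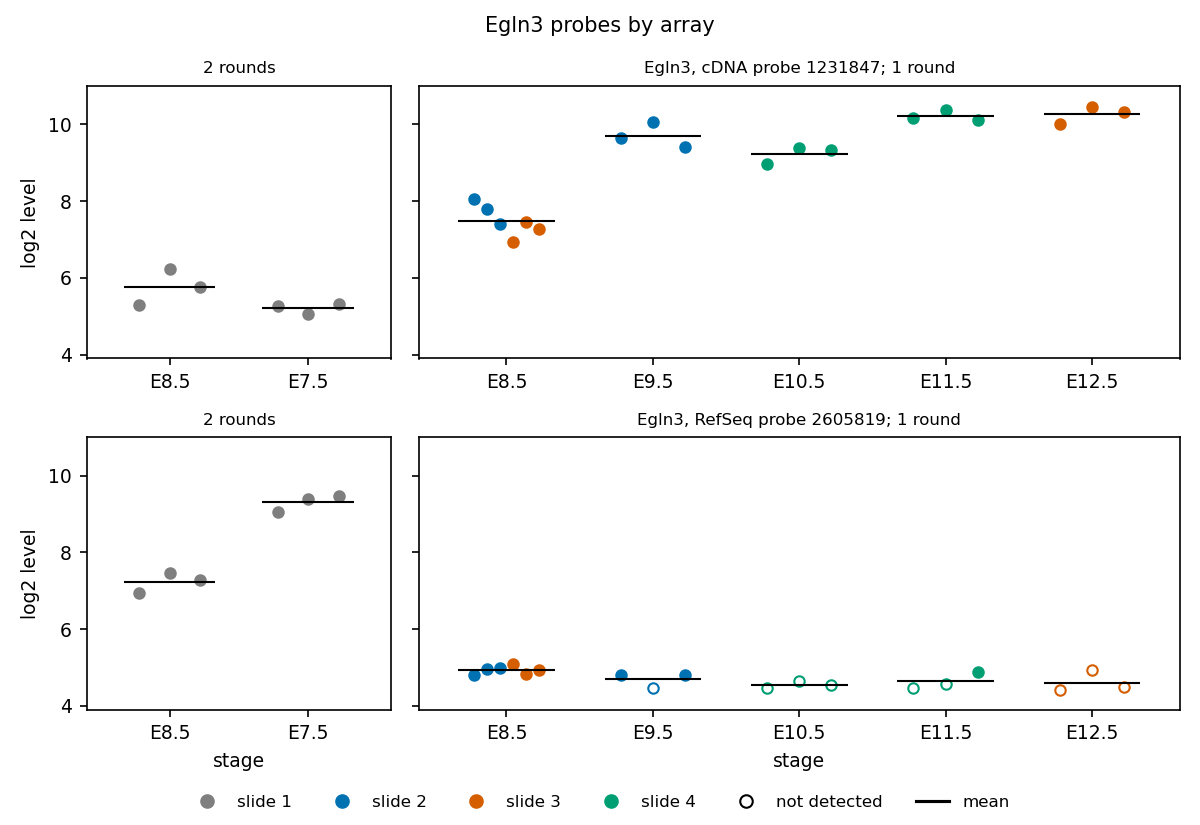
Log2 level of both Egln3 probes on each array by stage, drawn as for Hif3a. The upper probe climbs from E8.5 to E9.5 and sits highest at E11.5 and E12.5, while the lower one is bright with 2 rounds, lower at E8.5 than at E7.5, and near background with 1 round.

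Egln1, the main oxygen sensor among the prolyl hydroxylases, was faint. One of its 3 probes (ILMN_2682417) was detected on 12 of 18 arrays with 1 round and on 2 of 6 with 2 rounds, and the others on 1 and 0 of 24. It read 4.43, 4.40 and 4.54 at E12.5, detected on none, against 4.69 to 5.71 with a median of 5.21 at E8.5, detected on 4 of 6. The groups did not overlap. E12.5 was lower by at least 1.09-fold (measured means 4.46 and 5.15, adjusted p = 0.00167). But the change did not pass within slide 3 (-0.58, adjusted p = 0.0634) or under cyclic loess (-0.19, adjusted p = 0.614). Under median scaling it turned to 1.70. No step from one stage to the next was called.

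Vhl, which encodes the recognition subunit of the ligase that removes hydroxylated alpha subunits, was measurable only with 2 rounds. It read 5.36, 4.79 and 5.55 at E8.5, and 6.70, 6.53 and 6.04 at E7.5. The E8.5 arrays lay below all E7.5 arrays, a fall of -1.19 ± 0.30 (2.28-fold lower, adjusted p = 0.0442). That call was lost when E8.5 replicate 1 (-1.26), 2 (-0.97) or 3 (-1.35) or E7.5 replicate 1 (-1.04) or 2 (-1.13) was left out (adjusted p = 0.065 to 0.18), and with the authors' deposited processed values, where the change was -0.29 (adjusted p = 0.052).

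The targets Bnip3, which acts in mitochondrial turnover, and Ddit4, an inhibitor of mTOR signalling, were at background. The Bnip3 probe read 4.16 to 4.49 on all arrays and was detected on none. The Ddit4 probe read 4.26 to 4.96, and its detected values were 1 E8.5 array and 1 E7.5 array with 2 rounds and 1 E8.5 array with 1 round.

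Vegfa encodes the growth factor that drives vessel formation, and it is abundant in the visceral endoderm of early embryos. Its probe (ILMN_2484527) fell slightly on the 1-round arrays. It read 5.17, 4.91 and 5.30 at E9.5, against 5.30 to 6.0 with a median of 5.53 at E8.5. The highest E9.5 array and the lowest E8.5 array nearly met. The fall of -0.45 ± 0.15 passed over all arrays (1.37-fold lower, adjusted p = 0.0394) but not within slide 2 (-0.33, adjusted p = 0.236). Leaving out E9.5 replicate 1 (-0.46) or replicate 2 (-0.34) also lost the call, as did leaving out E8.5 replicate 4 (-0.37) or replicate 6 (-0.44). The visceral endoderm markers given above moved the same way, and their part was not tested.

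Vegfa read 5.09, 4.96 and 4.88 at E10.5 and 4.58, 4.90 and 4.49 at E11.5, where 1 of 3 arrays detected it. At E12.5 it read 5.22, 5.12 and 5.08, detected on 2 of 3 arrays, above E11.5 by 0.48 ± 0.17 (adjusted p = 0.0245). The lowest detected signals of the E12.5 arrays were 4.90 to 5.17, against 4.37 to 4.42 at E11.5. The call did not hold without the first E12.5 replicate (0.46), or without the first (0.43) or the third (0.39) E11.5 replicate. It was also lost with slide as a random block (0.41, adjusted p = 0.2), offset 50 (0.22, adjusted p = 0.061) and array weights (0.44, adjusted p = 0.065). E12.5 was below E8.5 by -0.44 ± 0.15 (adjusted p = 0.0124), and -0.56 within slide 3, though median scaling turned it to 1.38. With 2 rounds Vegfa read 8.12, 7.45 and 8.18 at E8.5, and 7.80, 7.57 and 6.93 at E7.5, with overlap and no call (0.49 ± 0.32, adjusted p = 0.409).

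**Figure D5:**
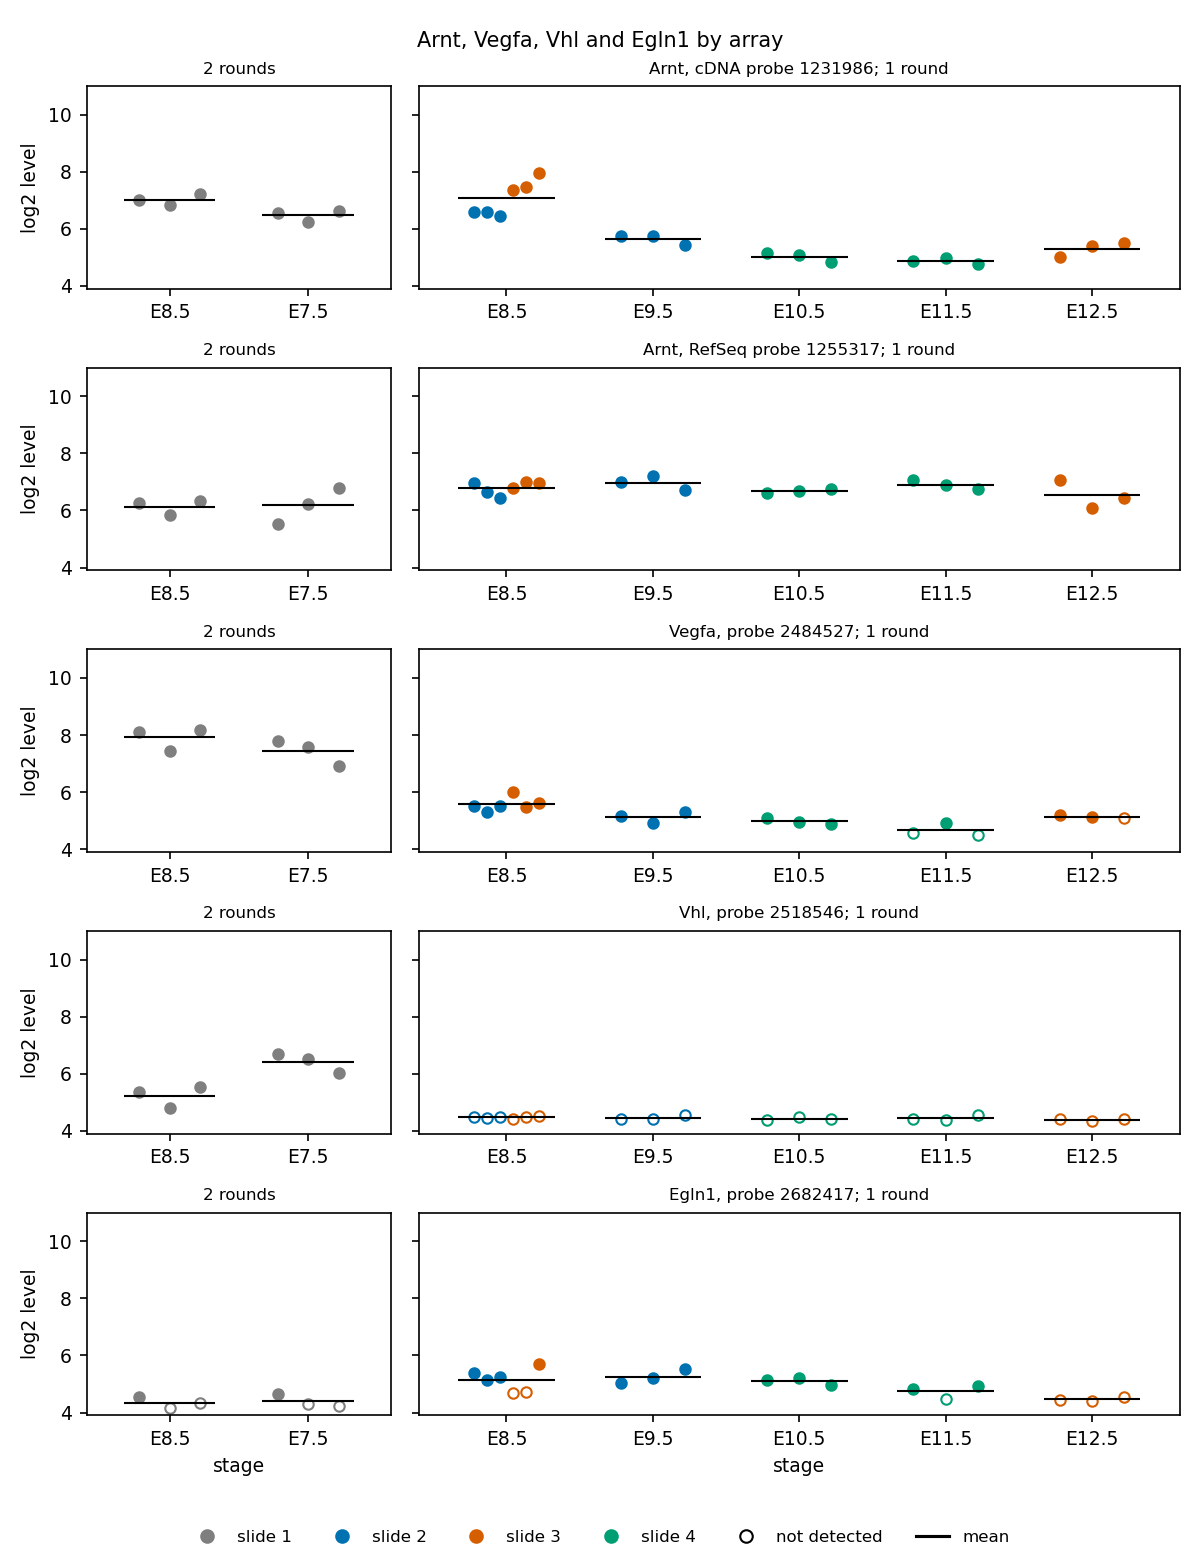
Log2 level of 2 Arnt probes and of the Vegfa, Vhl and Egln1 probes on each array by stage, drawn as for Hif3a. The upper Arnt probe steps down after E8.5 while the lower one stays level, Vhl is filled only with 2 rounds, and Egln1 and Vegfa lie close to background at the last stages.

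Other genes of the pathway were counted as 3 lists. Of 19 tested probes for HIF-induced glycolytic enzymes and glucose carriers, 9 fell and 0 rose at E9.5 against E8.5, where 9.05% of all probes fell, and no further probe of them was higher at an unadjusted p under 0.05. The median change was -0.72, against -0.02 over all probes, and the count of falls was 9 to 11 under the other scalings and within slide 2. Pkm, the pyruvate kinase gene, averaged 9.65 at E9.5 and 11.78 at E8.5 (-2.13 ± 0.18, adjusted p = 9.3e-08). Hk2, a hexokinase gene, averaged 6.83 at E9.5 and 9.21 at E8.5 (-2.38 ± 0.23). Of the 19, 2 fell at E10.5 (0.603% of all probes), with Hk2 at -1.61, and 4 fell at E11.5 (5.51% of all probes). Ldha, which encodes lactate dehydrogenase A, averaged 8.33 at E11.5 and 10.83 at E10.5 (-2.50 ± 0.27). At E12.5 against E11.5 the list moved both ways, with 6 higher and 5 lower (median change 0.13), where 23.6% and 23.9% of all probes were. The counts were 8 and 4 under cyclic loess and 13 and 4 under median scaling, which called 14293 of all 17408 probes higher. Probes of Aldoc, an aldolase gene (1.42 ± 0.18), and Slc16a3, a lactate carrier gene (1.27 ± 0.16 and 1.47 ± 0.21), rose, and Ldha fell again (-1.46 ± 0.27). The rises of these Aldoc and Slc16a3 probes were not called under cyclic loess. Each of these probes was detected on 2 of 3 arrays at E11.5. At E12.5 against E8.5, 4 of 19 were higher and 12 lower, where 32.1% and 35.4% of all probes were. The counts were 3 and 9 under cyclic loess and 8 and 9 under median scaling, which called 13889 of all 17408 probes higher and 1885 lower. Ldha changed by -5.98 ± 0.23 between these stages.

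Of 27 tested probes for HIF targets outside glycolysis, 3 rose and 5 fell at E9.5 against E8.5, where 7.53% and 9.05% of all probes did. Within slide 2 the counts were 2 and 2. Kdr, a receptor for VEGF, rose by 2.22 ± 0.27, and Plin2, a lipid droplet protein gene, by 1.34 ± 0.19. Hmox1, which encodes heme oxygenase, fell by 1.25 on the log2 scale. At E11.5 against E10.5, 3 rose and 3 fell, where 5.01% and 5.51% of all probes did. The counts were 6 and 1 under cyclic loess and 6 and 4 with slide 4 alone. Kdm3a, a histone demethylase gene, rose on 2 probes (1.00 ± 0.25 and 1.13 ± 0.31), and Tfrc, the transferrin receptor gene, fell (-0.85 ± 0.21). At E12.5 against E11.5, 11 rose and 1 fell, where 23.6% and 23.9% of all probes did. But the counts were 4 and 3 under cyclic loess and 22 and 0 under median scaling, which called 14293 of all 17408 probes higher. Hmox1 averaged 10.68 at E12.5 and 5.61 at E11.5 (5.07 ± 0.31, adjusted p = 7.19e-11). None of the 6 macrophage and leukocyte markers with a probe was detected at E12.5. The summed level of megakaryocyte markers was 1017 to 1570 at E12.5, against 299 to 335 at E11.5. These markers did not move together, with 3 of 5 tested probes higher and 1 lower. Itga2b and Vwf were detected on 3 of 3 arrays at both stages. Pf4 and Gp9 were each detected on 2 of 3 arrays at E11.5 and on 0 of 3 at E12.5. Of the 27 target probes, 15 were higher and 6 lower at E12.5 against E8.5, where 32.1% and 35.4% of all probes were. These counts were 11 and 3 under cyclic loess and 14 and 4 within slide 3. Median scaling gave 25 and 1, and called 13889 of all 17408 probes higher. At E8.5 against E7.5, 2 of 29 tested target probes rose and 7 fell, where 6.04% and 6.03% of all probes did.

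Of the partners of oxygen sensing, 2 of 14 tested probes fell (9.05% of all probes) and 0 rose at E9.5 against E8.5, with 2 higher at an unadjusted p under 0.05. Under cyclic loess 1 rose and 4 fell, and under median scaling 1 rose and 5 fell, where 1208 and 4055 of all 17408 probes did. The fallen probes belong to Siah1a, a ligase gene acting on prolyl hydroxylases (-0.78 ± 0.20, not called within slide 2), and to Rbx1, a subunit of the VHL ligase (-0.96 ± 0.25). A brighter Rbx1 probe (ILMN_2606947, mean 10.14 at E8.5) was not called at this step. At E8.5 against E7.5 the brighter probe rose (0.59 ± 0.12) and the other fell (-0.97 ± 0.18). Both fell at E12.5 against E8.5 (-1.33 and -1.23, the latter not called under median scaling). At E12.5 against E11.5, 3 rose and 4 fell in the same list, where 23.6% and 23.9% of all probes did. The counts were 2 and 0 under cyclic loess and 11 and 0 under median scaling, which called 14293 of all 17408 probes higher. Siah1a averaged 8.93 at E12.5 and 7.26 at E11.5 (1.68 ± 0.23).

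Across the 18 arrays with 1 round, the genes with the pattern most like that of the RefSeq probe of Hif3a, out of 9411 genes by Pearson correlation, were Hrob (r = 0.994), Maff (0.994), Nup98 (0.991), Ube2ql1 (0.990) and Adam30 (0.990). The most opposite were Arhgap45 (-0.975), Pecam1 (-0.973), Rai14 (-0.972), Cask (-0.970) and Kit (-0.969). Among the pathway genes the brightest probes gave 0.914 for Egln3, -0.26 for Arnt, -0.31 for Egln1 and -0.84 for Vegfa. These arrays share stages and slides, so the values describe likeness over time and nothing more.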

How the data were processed

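RNA of sorted primitive erythroid cells was hybridised to Illumina bead arrays, 1 sample per array. For each probe and array an intensity and a detection p-value were deposited, non-normalised per the file headers. Within slide 2 and within slide 4, however, the arrays' intensities had nearly equal quantiles (5 of them differed by at most 0.642% and 0.404%). A further 48 columns of bead errors and bead numbers were not used. The authors' processed values, on a log2-like scale whose transform is not given in the sources used here, served as an alternative. Probe symbols come from the platform annotation, updated through gene IDs.

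Intensities were background-corrected by normexp with detection p-values, an offset of 16 added, and quantile-normalised in log2, apart for 18 arrays with 1 round and 6 with 2 (R 4.3.3, limma 3.58.1). Probes with a detection p under 0.05 on at least 3 arrays were tested, 17408 and 13941 of them, with lmFit and eBayes (intensity trend) and Benjamini-Hochberg adjustment. One fit held all 1-round stages. Groups follow the sample titles. E8.5 replicates 4 to 6 repeat the descriptions of replicates 1 to 3, and E9.5 replicate 1 that of replicate 2 (r = 0.986 with it), and all were kept as samples by title. The p-values rest on the spread among the arrays of a stage, which may be technical in part, and the number of arrays limits the precision. Differences between probes of a gene were tested by exact permutation over arrays. The script was tested on simulated data.

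The genes, lists, comparisons and naming rules were chosen with earlier results of these data known. All probes of the 10 genes were to be named, up to 3 probes per direction and comparison of each list, of which the text gives part, and the 5 genes most and least like Hif3a. Promoter sequences are from RefSeq (GRCm38.p6) and matched all 9 genes with a probe. Alternatives were offset 50, median scaling, cyclic loess, the authors' values, no or a stricter filter (detection p under 0.01), replicate and slide blocks, single slides, 2 groups only, array weights, 1 probe per gene, and leaving out each array.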

Additional observations from a re-analysis of the deposited data

How the results depend on the processing

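The rise of both bright Hif3a probes and of the Egln3 cDNA probe at E9.5, the fall of the Arnt cDNA probe at E9.5 and of the Hif3a cDNA probe at E12.5 against E11.5 kept direction and call in every alternative in which they were tested. Of 1222 recomputed values, 1143 kept their side of the threshold, of which 840 were called in neither setting (44 of these with another sign), while 47 lost a call, 22 gained one and 10 turned over. All 10 turned under median scaling, which moved the median of all probes to 2.20 at E12.5 against E11.5 and 1.96 at E12.5 against E8.5 (main -0.04 and -0.05). For E12.5 against E11.5 these were Hif3a ILMN_2760494 (2.72), Arnt ILMN_1235370 (2.73) and ILMN_2728802 (1.82), Egln1 (2.55) and Egln3 ILMN_2605819 (2.69), and for E12.5 against E8.5 Arnt ILMN_1235370 (2.35) and ILMN_2728802 (1.65), Egln1 (1.70), Vegfa (1.38) and Egln3 ILMN_2605819 (1.98). Among all probes, median scaling called 14293 higher and 875 lower at E12.5 against E11.5 (main 4104 and 4153), 13889 and 1885 at E12.5 against E8.5 (5587 and 6161), 1208 and 4055 at E9.5 against E8.5 (1311 and 1576), 240 and 287 at E10.5 against E9.5 (182 and 105) and 932 and 1639 at E11.5 against E10.5 (873 and 959). Cyclic loess called 20.2% and 27.4% of all probes in the comparisons of E12.5 with E11.5 and E8.5.

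The number of pathway probes called at E12.5 against E11.5, 2 in the main setting, was 1 with offset 50, 10 with median scaling, 4 with cyclic loess, 4 with a replicate block and 1 with slide as a random block. At E11.5 against E10.5 (main 1) it was 0 with no filter and 3 with array weights, and at E10.5 against E9.5 (main 0) it was 1 with a replicate block, 1 with only the 2 groups and 3 with array weights. At E12.5 against E8.5 (main 7) the replicate block gave 4. The replicate block also called the Arnt cDNA probe at E10.5 against E9.5 and at E12.5 against E11.5. Leaving out each array gave 1 to 3 at E8.5 against E7.5, 4 to 5 at E9.5 against E8.5, 0 to 0 at E10.5 against E9.5, 0 to 1 at E11.5 against E10.5, 1 to 3 at E12.5 against E11.5 and 6 to 7 at E12.5 against E8.5. The cause of these shifts was not tested. Same-numbered arrays deviated together at r = -0.141 to 0.147, so the numbers were not taken to pair the samples. Arrays of a slide correlated at 0.300. Probes near background, with the fewest detections at E12.5, limit what can be said of Hif1a, Egln1, Vhl, Bnip3 and Ddit4.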
